A study of Mus musculus with 38 samples.

Results

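The germinal vesicle (GV) oocyte is arrested in prophase of meiosis I and does not transcribe, so the proteins it needs for meiotic maturation are made from mRNA that it already holds. Messages in translation carry several ribosomes and sediment with the heavy fractions of a sucrose gradient, the polysomes, while messages kept silent for later use stay in the lighter, non-polysome fractions. A well-known route of this storage is the cytoplasmic polyadenylation element (CPE), a U-rich sequence in the 3′ UTR that is bound by CPEB1, which keeps the poly(A) tail short in the arrested oocyte and lengthens it at maturation. The comparison of both fractions asks which mRNAs of the arrested oocyte were loaded on polysomes and which were not.

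The 6 libraries described here were 3 polysome (P) and 3 non-polysome (NP) libraries of GV oocytes, out of 38 samples of the series, 36 of which have a column in the deposited table. They were chosen by the stage, fraction and replicate letter in the sample titles, and P and NP libraries with the same letter were treated as a pair. All were labelled wild type (WT). The oocytes came from ICR females at least 6 weeks old that had received PMSG, a gonadotropin that stimulates follicle growth. They were fully grown, freed of cumulus cells and kept in the GV stage with IBMX, a phosphodiesterase inhibitor that prevents meiotic resumption. Before lysis the oocytes were treated with cycloheximide, which holds ribosomes on the mRNA. The number of oocytes and females behind a library is not given in the sources used here.

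Values are FPKM, fragment counts divided by transcript length and library size, as normalised by the authors. A difference is given as log2 of (polysome FPKM + 0.1) minus log2 of (non-polysome FPKM + 0.1), which understates the change of genes with low values. Negative values mean lower in polysomes. Each library is scaled to its own total, so a value tells what share of that pool's RNA a gene takes, not how many molecules the oocyte has there, and less RNA per cell and fewer contributing cells cannot be told apart. The lighter fractions of each gradient were pooled as NP and an equal number of heavier fractions as P. Sedimentation with the heavy fractions was measured, and ribosomes on a message were not. A gene lower in polysomes is therefore not shown to be untranslated or stored. Of 23125 genes, 3799 reached 1 FPKM as a geometric mean of the 6 libraries and were tested with limma. This minimum could be reached through high values in either fraction alone. Called genes are those with a log2 difference beyond 1 in either direction and a p under 0.05 after Benjamini-Hochberg adjustment.

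Estimated depth ran from 20300000 to 25200000 fragments per library, and NP libraries showed 6886 to 9588 genes above 0.1 FPKM against 8752 to 10257 in P libraries. One library stood apart. The log2 values of NP B correlated with those of the other NP libraries at r = 0.755 and 0.753 across genes, whereas NP A and NP C correlated at 0.917. Correlations among P libraries were 0.789 to 0.911. NP B also had the fewest genes above 0.1 FPKM, so several results are also given without pair B. All 12 oocyte markers were tested, and their sums were 10021 to 10484 FPKM in NP and 6002 to 6900 FPKM in P. Of 13 granulosa and cumulus markers in the table none was tested, their summed level stayed between 0.160 and 0.569 FPKM, the highest was Cyp11a1 at 0.364 FPKM, and 6 stood at the table's lowest value of 0.01 in every library. Of 6 stroma and blood markers in the table, 5 stood at 0.01 throughout, and Dcn reached 0.0464 FPKM.

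In GV oocytes, 205 genes were called lower in polysomes (5.4% of those tested) and 87 were called higher (2.29%). The genes lower in polysomes included those for cyclin B1, Mos, securin, Cdc20 and Mad2, the Obox homeobox family and several histone variants. The genes higher in polysomes included 3 beta-tubulins and the oocyte transcription factor Nobox. All 292 called genes differed in the same direction in each of the 3 pairs, and in 290 of them the P and NP values did not overlap, which was so for 42.1% of all genes tested. With 3 pairs a call at these thresholds nearly requires such agreement, so it describes the selection and is no separate support. The median difference over all genes tested was 0.27. At an unadjusted p under 0.05, 641 genes were higher and 606 lower.

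The counts depended on single pairs and on the model. With the replicate letter left out of the model, 214 genes were called higher (5.63%) and 354 lower (9.32%), and 82 of the 87 and 200 of the 205 were among them. Without pair B, 509 were called higher (13.4%) and 525 lower (13.8%), and all 87 and all 205 were among them, whereas without pair A 87 were called higher and 85 lower. With nothing added to FPKM 0 were called higher and 5 lower, and with a limma prior without trend 0 either way, although 1153 and 1216 genes had an unadjusted p under 0.05. Scaling changed the split of the calls. After each library was rescaled to the same sum, 110 were called higher and 142 lower, and the median over all genes went from 0.27 to 0.47, whereas quantile normalisation gave 270 and 371 with a median of 0.16, and centring each library on its median gave 79 and 265 with a median of 0.11. Differences close to the median of all genes are therefore given as values only.

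**Figure D1:**
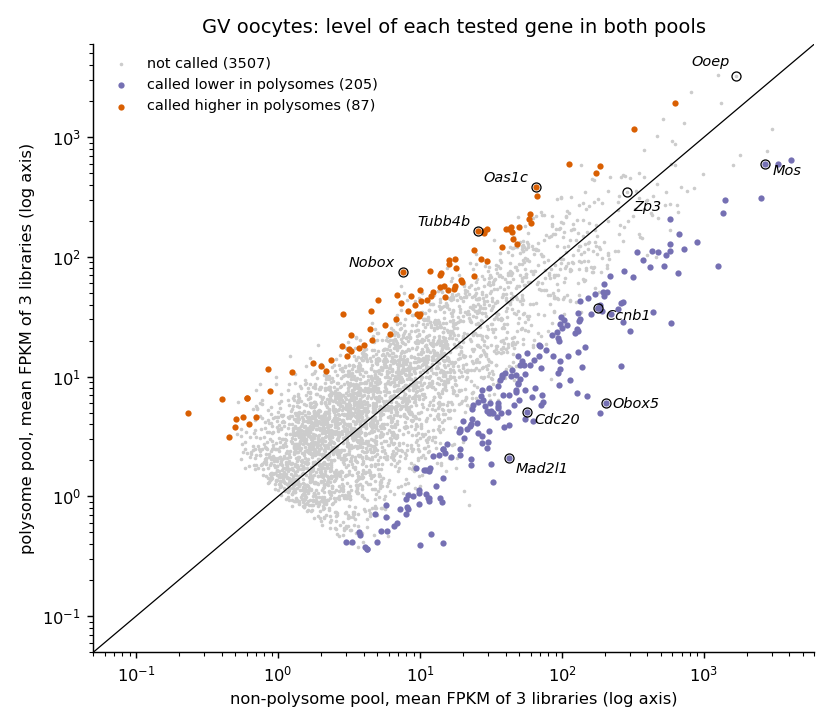
Mean FPKM of each of the 3799 tested genes in the NP libraries (x axis, log scale) and in the P libraries (y axis, log scale), 3 libraries each, with genes called lower in polysomes in purple and genes called higher in orange. The 205 lower genes lie below the line of equal levels over the whole range of abundance, and Mos is among the most abundant of them.

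The motif that marks CPE-containing mRNAs can be read directly from the 3′ ends of the genes that were lowest in polysomes. The sequences below are 30-base windows of the 3′ UTR in GRCm38, written 5′ to 3′ in the sense of the mRNA with T for U, and capitals mark the match to TTTTAT or TTTTAAT, the consensus forms of the CPE. They show the match nearest to the 3′ end among genes with the largest differences, and the first lines are genes that carry it.
D6Ertd527e (chr6:87112945-87112974, plus strand): gtacatttTTTTATtattgtttgtttattt
Magoh (chr4:107887350-107887379, plus strand): ggggcaatTTTTATaaacaataaatgatga
Omt2a (chr9:78312012-78312041, minus strand): tttaacggTTTTATaataaataaaagtttc
Omt2b (chr9:78329559-78329588, plus strand): tttaacggTTTTATaataaataaaagtttc
Obox2 (chr7:15398482-15398511, plus strand): tcttaattTTTTATtgttagagtatatgtt
Bpgm (chr6:34505576-34505605, plus strand): tgtatccaTTTTATaataaaacgggccttt
Cks2 (chr13:51650602-51650631, plus strand): aatgcctgTTTTATtttacctgttttgtta

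Of the 9 tested genes known as dormant in the GV oocyte and recruited to polysomes at maturation, 5 held the motif in the last 100 bases. These are shown because the list is described as a group further on, and Cnot7 and Orc6 of them were called lower.
Cnot7 (chr8:40493036-40493065, minus strand): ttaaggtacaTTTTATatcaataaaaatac
Orc6 (chr8:85308009-85308038, plus strand): tttttaaaTTTTATttcactaaatgttata
Btg4 (chr9:51119801-51119830, plus strand): aaatccctTTTTATgtctttttaaaagttt
Plat (chr8:22782748-22782777, plus strand): tatttataTTTTAATctattttagttttta
Dcp1a (chr14:30527013-30527042, plus strand): atatatttTTTTAATaaaatttcaaaacca
Among the 12 genes with the largest difference in each direction, 11 had a gene model with a 3′ UTR of at least 100 bases, and 7 of 11 lower and 1 of 11 higher genes held the motif in the last 100 bases, against 20.4% of all 2794 tested protein-coding genes with such a model. The exception among the higher genes was Gnai2, an inhibitory G protein subunit.
Gnai2 (chr9:107614162-107614191, minus strand): ttcacatgTTTTATggaattgttcacatga
In that window no match was found for Obox5, Mad2l1, Mphosph6 and Nip7, nor for Mos, Ccnb1, Dazl and Dcp2 of the dormant list. A match is a description of the sequence, not a tested binding site, and no match says only that these letters are absent from this window of this gene model.

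The 12 protein-coding genes with the largest decrease, among those with a mean of at least 10 FPKM, spanned oocyte-specific transcripts, RNA-processing factors and regulators of the cell cycle. D6Ertd527e, a transcript of unassigned function (chr6:87104746-87112997), measured 252, 242 and 60.1 FPKM in NP A, B and C and 5.6, 6.81 and 2.6 FPKM in P A, B and C. Every P value was below every NP value, and the log2 difference was -5.03 ± 0.37 (SE, 3 pairs; limma adjusted p = 0.0131). Obox5, an oocyte homeobox gene, measured 254, 252 and 104 FPKM in NP and 6.99, 6.97 and 4.2 FPKM in P, and NP C was the lowest of the NP values. Its log2 difference was -4.97 ± 0.33 (limma adjusted p = 0.0131). Magoh, a core subunit of the exon junction complex, measured 40.3, 36.7 and 21.1 FPKM in NP against 0.536, 2.49 and 0.92 FPKM in P, without overlap, a log2 difference of -4.73 ± 0.59 (limma adjusted p = 0.0297).

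Omt2a and Omt2b, neighbouring oocyte maturation genes that share the 30 bases printed for them, behaved alike, although reads of such close copies may be split between them. Omt2b had 1267, 1628 and 859.6 FPKM in NP and 69.1, 136 and 46.3 FPKM in P. Omt2a had 582, 786 and 401 FPKM in NP and 24.2, 40.0 and 19.4 FPKM in P. The differences were -3.99 and -4.41, and P B was the highest of the P values in both.

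Other genes of this group act in RNA processing and in metabolism. Mphosph6, an exosome-associated factor of rRNA processing, fell from 149, 197 and 100.1 FPKM in NP to 6.92, 8.01 and 5.92 FPKM in P, a log2 difference of -4.36. Nip7, a factor of ribosome biogenesis, went from 49.7, 24.3 and 20.2 FPKM in NP to 1.59, 2.12 and 1.92 FPKM in P, a log2 difference of -3.89 (limma adjusted p = 0.0304). Bpgm, bisphosphoglycerate mutase, had 174, 129 and 77.5 FPKM in NP and 6.35, 7.37 and 8.08 FPKM in P, a log2 difference of -4.04. The P values of these genes lay close together, and most of the spread was among the NP libraries.

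**Figure D2:**
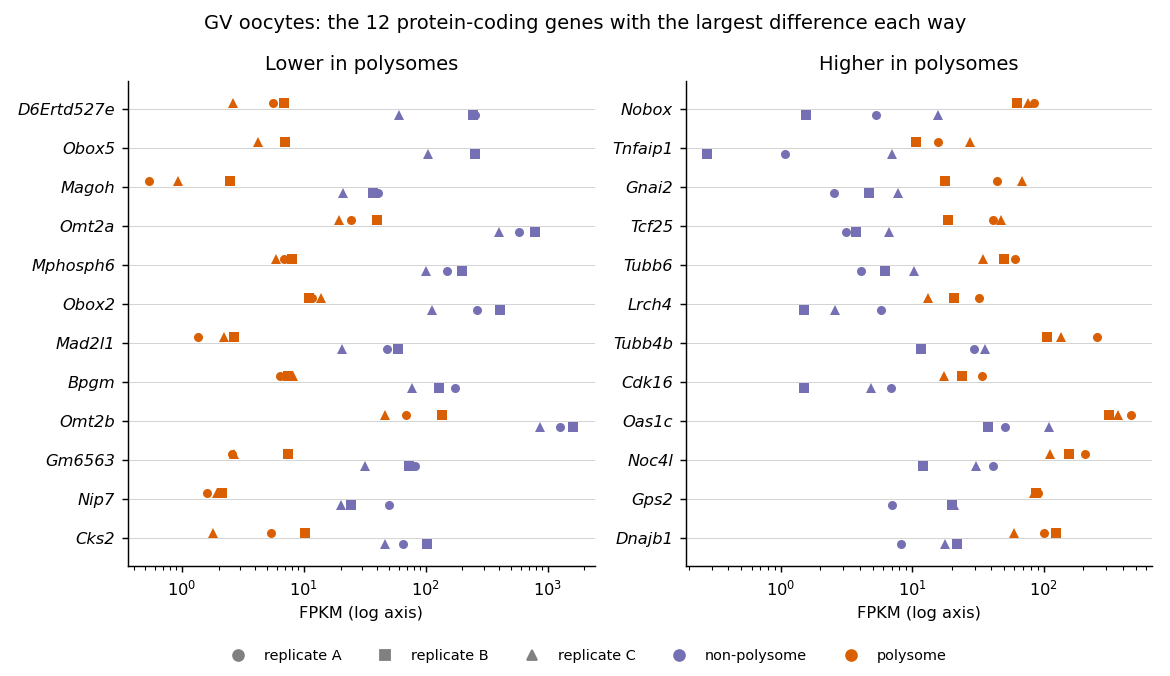
FPKM (x axis, log scale) of the 12 protein-coding genes with the largest log2 difference in each direction, with NP libraries in purple, P libraries in orange and a symbol for each replicate letter. P and NP values do not overlap in any of the 24 genes, and in the genes higher in polysomes the lowest NP value is often that of NP B, as for Nobox at 1.57 FPKM.

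Several regulators of the meiotic divisions were among the genes called lower. Pttg1, which encodes securin, the inhibitor of separase, was one of the most abundant mRNAs in NP with 3415, 3569 and 2944 FPKM, and it measured 408, 1028 and 367 FPKM in P. P B was the highest of the P values yet below every NP value, and the log2 difference was -2.62 ± 0.44 (limma adjusted p = 0.0383). Mos, the kinase that activates the MAPK pathway and sustains metaphase II arrest, measured 2895, 2661 and 2571 FPKM in NP against 481, 837 and 478 FPKM in P, a log2 difference of -2.23 ± 0.40 (limma adjusted p = 0.0393). Even so, in P Mos remained at 478 FPKM or more in each library, far above most genes.

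Ccnb1 and both Cks genes were also called lower. Ccnb1, the regulatory subunit of Cdk1 that drives meiotic resumption, had 197, 248 and 95.8 FPKM in NP and 32.8, 31.6 and 47.8 FPKM in P. NP C was the lowest NP value and P C the highest P value, so pair C differed least, and the log2 difference was -2.19 ± 0.46 (limma adjusted p = 0.0477). Cks2, a Cdk1-binding subunit, had 64.6, 103 and 46.4 FPKM in NP against 5.32, 10.3 and 1.81 FPKM in P, a log2 difference of -3.83 (limma adjusted p = 0.0286). Its paralogue Cks1b had 432, 370.5 and 487 FPKM in NP and 110.1, 135 and 92.3 FPKM in P, a log2 difference of -1.94 (limma adjusted p = 0.0393). Of 8 tested cyclins, Cdks and Cks genes these 3 were called lower and 0 higher, where 5.4% and 2.29% of all genes were called, and the median was -1.36, or -0.84 without pair B. By unadjusted p under 0.05, 4 were lower and 2 higher in the limma fit, against 606 and 641 of all 3799 genes. Cdk1 itself had a log2 difference of 1.30 and Ccno, an atypical cyclin, 1.02, and neither passed (limma adjusted p = 0.089 and 0.115).

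Components that act on the anaphase-promoting complex (APC/C) followed. Cdc20, the APC/C activator, measured 77.3, 51.4 and 42.6 FPKM in NP and 4.77, 5.85 and 4.48 FPKM in P, and the log2 difference was -3.44 ± 0.39 (limma adjusted p = 0.0286). Mad2l1, the checkpoint protein that restrains Cdc20, measured 47.8, 59.2 and 20.7 FPKM in NP and 1.36, 2.69 and 2.21 FPKM in P, with a log2 difference of -4.21 ± 0.52 (limma adjusted p = 0.0297). Fbxo43, which encodes the APC/C inhibitor Emi2, had 11.5, 17.0 and 4.67 FPKM in NP against 0.995, 1.06 and 1.07 FPKM in P, a log2 difference of -3.10 (limma adjusted p = 0.0432). In none of these genes did P and NP values overlap. Of 18 tested genes of the APC/C, securin and checkpoint list, Cdc20, Mad2l1, Fbxo43 and Pttg1 were called lower and 0 higher, against 5.4% and 2.29% of all genes, with a median of -0.21. By unadjusted p under 0.05 in limma, 1 gene of the list was higher and 6 were lower, against 641 and 606 of all 3799 genes. Fzr1, the alternative APC/C activator known to act in prophase arrest, stood at 0.75 (0.47 without pair B) and the checkpoint gene Bub3 at 1.21, and neither passed (limma adjusted p = 0.238 and 0.0783).

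A list of mRNAs known as dormant in the GV oocyte and recruited at maturation was compared as a group. Of 9 tested genes 4 were called lower, namely Mos, Ccnb1, Cnot7 and Orc6, and 0 were called higher, against 5.4% and 2.29% of all genes. At an unadjusted p under 0.05 in limma, 6 were lower and 0 higher, against 606 and 641 of all 3799 genes. The median was -1.89, and by pair it was -2.23 in A, -2.38 in B and -0.52 in C. Without pair B it was -1.38. Cnot7, a deadenylase of the CCR4-NOT complex, measured 6.06, 9.89 and 3.82 FPKM in NP and 0.562, 0.46 and 0.689 FPKM in P, a log2 difference of -3.23 (limma adjusted p = 0.04). With every P value under 1 FPKM, Cnot7 reached the minimum for the test only through its NP values. Orc6, a subunit of the origin recognition complex, measured 36.2, 44.9 and 16.8 FPKM in NP and 3.83, 5.66 and 5.45 FPKM in P, a log2 difference of -2.59 (limma adjusted p = 0.04). NP and P values of both genes were apart in every pair.

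The other members of the list did not pass. Btg4, the adaptor that brings CCR4-NOT to maternal mRNA, had 43.7, 60.8 and 27.2 FPKM in NP and 9.22, 7.87 and 19.0 FPKM in P, a log2 difference of -1.89 (limma adjusted p = 0.0784). Btg4 was called lower without pair B (limma adjusted p = 0.0486) and with the replicate letter left out (limma adjusted p = 0.0364). Plat, tissue plasminogen activator, a classical dormant mRNA, had 26.1, 31.8 and 12 FPKM in NP and 6.43, 6.03 and 9.51 FPKM in P, a log2 difference of -1.57 (limma adjusted p = 0.103). The values of Btg4 and Plat did not overlap between fractions, and pair C differed least in each. Dcp1a and Dcp2, subunits of the decapping enzyme, stood at -0.78 and 0.88 (limma adjusted p = 0.299 and 0.317), or -0.35 and 0.44 without pair B. Dazl, a translational activator of maturation, stood at -0.33 (limma adjusted p = 0.663), or 0.13 without pair B.

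Oocyte transcription factors moved in both directions. The 4 tested Obox genes were all called lower, with log2 differences from -4.97 for Obox5 to -3.27 for Obox7, although members of this family share sequence and their reads may be split. Nobox, the homeobox factor of follicle growth, was called higher, with 5.27, 1.57 and 15.7 FPKM in NP and 84.5, 62.6 and 75.5 FPKM in P. The P values of Nobox were all above the NP values, which spread widely, and the log2 difference was 3.82 ± 0.61 (limma adjusted p = 0.038). Without pair B it was 3.12. Gtf2a1l, a general transcription factor of germ cells, stood at 0.10, or -0.04 without pair B. Over the 6 tested genes, of which 4 were called lower and 1 higher against 5.4% and 2.29% of all genes, the median was -3.75.

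Histone variants showed a similar mixture. H2afx, the variant that is phosphorylated at DNA breaks, measured 105, 118 and 65.8 FPKM in NP and 5.04, 30.4 and 5.05 FPKM in P, a log2 difference of -3.33 (limma adjusted p = 0.038). H2afz, a variant found at promoters, measured 33.3, 38.3 and 19.5 FPKM in NP and 3.66, 1.79 and 5.19 FPKM in P, a log2 difference of -3.13 (limma adjusted p = 0.04). H3f3b, a gene for the replication-independent histone H3.3, measured 393, 447 and 405 FPKM in NP and 73.8, 78.1 and 92.9 FPKM in P, a log2 difference of -2.35 (limma adjusted p = 0.0304). In all of them each P value was below each NP value, with P B of H2afx the highest.

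Npm2, the oocyte nucleoplasmin that stores and exchanges histones, was higher in polysomes at a low level, with 0.446, 0.247 and 0.66 FPKM in NP and 2.78, 3.11 and 3.53 FPKM in P, a log2 difference of 2.62 (limma adjusted p = 0.0452). Every NP value was under 1 FPKM, so Npm2 reached the minimum for the test only through its P values. Of the 10 tested genes of this list, H2afx, H2afz and H3f3b were called lower and Npm2 higher, against 5.4% and 2.29% of all genes, and the median was -1.40. H1foo, the oocyte linker histone, had 2954, 3203 and 2168 FPKM in NP and 632, 544 and 1143 FPKM in P without overlap, yet its difference of -1.90 did not pass (limma adjusted p = 0.0622, or 0.00445 without pair B and 0.0212 with the replicate letter left out). Cenpa, the centromeric histone H3, differed by -2.77 and did not pass either (limma adjusted p = 0.0554), but it was called lower without pair B, at -3.57 (limma adjusted p = 1.59e-07), and with the replicate letter left out of the model (limma adjusted p = 0.0195). Of 15 tested replication-dependent histone genes, whose mRNA mostly lacks a poly(A) tail, Hist1h4d alone was called lower, against 5.4% of all genes. Hist1h4d differed by -2.73 (limma adjusted p = 0.0423, and 0.0659 with the replicate letter left out), and the median of the list was -0.19. By pair the median was -0.39 in A, 0.40 in B and -1.64 in C, and without pair B it was -0.73 with 3 genes called lower, where 13.8% of all genes were.

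Among the genes called higher in polysomes were 3 tubulins. Tubb4b had 29.7, 11.7 and 36.0 FPKM in NP and 257, 105 and 135 FPKM in P, a log2 difference of 2.72 ± 0.38 (limma adjusted p = 0.0349). Tubb2a had 34.6, 38.3 and 54.9 FPKM in NP against 184, 156 and 176 FPKM in P, a log2 difference of 2.04 (limma adjusted p = 0.038). Tubb6 had 4.12, 6.19 and 10.3 FPKM in NP and 60.3, 49.7 and 34.4 FPKM in P, a log2 difference of 2.85 (limma adjusted p = 0.0393). Tubulins build the spindle, and the 3 beta-tubulin genes were the called ones of 14 tested, with 0 called lower and a median of 0.80, where 2.29% of all genes were called higher. At unadjusted p under 0.05, 5 tubulins were higher and 1 lower in limma, against 641 and 606 of all 3799 genes. Tuba1c, the alpha-tubulin gene with 211, 134 and 209 FPKM in NP, stood at -0.66, and the gamma-tubulin gene Tubg2 at 0.49. Tubulin genes resemble each other closely, so their values are uncertain where reads could be shared.

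The remaining genes with the largest increases have varied roles. Oas1c, an oocyte member of the oligoadenylate synthetase family, was the most abundant of them, with 50.7, 37.4 and 109 FPKM in NP and 463, 315 and 366 FPKM in P, a log2 difference of 2.67 (limma adjusted p = 0.038). Noc4l, a nucleolar factor, had 41.5, 12.1 and 30.3 FPKM in NP and 205, 156 and 111 FPKM in P, a log2 difference of 2.61. Dnajb1, an Hsp40 co-chaperone, had 8.21, 22.1 and 17.7 FPKM in NP and 100.3, 123 and 59.1 FPKM in P, a log2 difference of 2.60. The P values exceeded the NP values throughout.

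Gnai2 had 2.53, 4.69 and 7.84 FPKM in NP and 44.2, 17.9 and 69.0 FPKM in P, a log2 difference of 3.04. Gps2, a subunit of the NCoR corepressor, had 6.98, 20.1 and 20.9 FPKM in NP and 91.3, 87.3 and 84.3 FPKM in P, a log2 difference of 2.60. Tnfaip1, an adaptor of a cullin ubiquitin ligase, had 1.07, 0.275 and 7.06 FPKM in NP and 15.8, 10.6 and 27.4 FPKM in P, a log2 difference of 3.51 (limma adjusted p = 0.0423, and 0.0546 with the replicate letter left out). The P values of Gps2 were almost equal, whereas those of Gnai2 and Tnfaip1 spread more. Tcf25, Lrch4 and the cyclin-dependent kinase gene Cdk16 differed by 2.92, 2.83 and 2.67. For Tnfaip1, Lrch4 and Cdk16, NP B was the lowest library, and without pair B their differences were 2.85, 2.39 and 2.06.

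Zona pellucida and egg coat genes were compared next. Zp3, a glycoprotein of the zona pellucida, had 310.5, 234 and 317 FPKM in NP and 371, 423 and 251 FPKM in P, which overlap, and a log2 difference of 0.26 (limma adjusted p = 0.642). Zp1 stood at 0.19 and Zp2 at -0.21. Without pair B these 3 values were -0.04, -0.29 and 0.04. None of the 5 tested zona and egg coat genes was called in limma, and none had an unadjusted p under 0.05.

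Genes of the subcortical maternal complex, which the early embryo needs, were spread around the median of all genes. Ooep had 1796, 1459.5 and 1814 FPKM in NP and 3479, 3758 and 2497 FPKM in P, so that each P value was above each NP value, but the log2 difference of 0.93 did not pass (limma adjusted p = 0.185). Zbed3 had 963, 1224 and 1608 FPKM in NP and 3403, 2971 and 3528 FPKM in P, a log2 difference of 1.41 (limma adjusted p = 0.0809, and 0.00709 without pair B). Of 6 tested genes of the complex 0 were called in limma, 1 was higher and 1 lower at unadjusted p under 0.05, and the median was 0.51. Nlrp5 was the lowest with -2.12 (limma adjusted p = 0.0968).

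Of 6 tested oocyte-secreted factors, 2 were called lower and 0 higher, against 5.4% and 2.29% of all genes. Oosp3 and Oosp1, small secreted oocyte proteins, were called lower at -3.02 and -1.80 (limma adjusted p = 0.0286 and 0.0393), while Oosp2 stood at 0.18, or -0.16 without pair B. Gdf9, the growth factor that signals to granulosa cells, had 1504, 1418 and 2487 FPKM in NP and 677, 704 and 751 FPKM in P. Its values did not overlap and differed by -1.30, which did not pass (limma adjusted p = 0.0842, or 0.0107 without pair B and 0.0415 with the replicate letter left out). Bmp15, its partner, stood at -0.15, or 0.28 without pair B. Fgf8, a fibroblast growth factor, stood at 1.79 with NP B at 0.01 FPKM, and at -0.17 without pair B (limma adjusted p = 0.351 and 0.86). Over the 6 tested genes of the list the median was -0.72.

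Proteins that hold maternal mRNA in store were encoded by mRNA with a median above that of all genes. Zar1, an RNA-binding protein of the oocyte's mRNA stores, had 701, 667 and 811 FPKM in NP and 1407, 1469.9 and 1087 FPKM in P, each P value above each NP value, with a log2 difference of 0.86 (limma adjusted p = 0.173). Zar1l differed by 3.39 (limma adjusted p = 0.0529) and Pabpc1l, the oocyte poly(A)-binding protein, by 3.34 (limma adjusted p = 0.0764), but Zar1l was at 0.01 and Pabpc1l at 0.0395 FPKM in NP B. Without pair B the differences were 2.51 and 2.09, and both were called higher (limma adjusted p = 0.00095 and 0.00579). Cpeb1 stood at -0.21, or 0.13 without pair B. None of 12 tested storage genes was called in limma, 4 were higher and 0 lower at unadjusted p under 0.05, and the median was 0.66. Of 12 tested genes for deadenylation, decapping and clearance, Cnot7 and Cnot8, which encode the paralogous Caf1 deadenylases, were called lower at -3.23 and -3.33, against 5.4% of all genes, while the list's median was 0.24, or 0.05 without pair B. Cnot8 measured 12.3, 6.56 and 5.00 FPKM in NP and 1.06, 0.325 and 0.731 FPKM in P. Both genes thus reached the minimum for the test through their NP values.

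**Figure D3:**
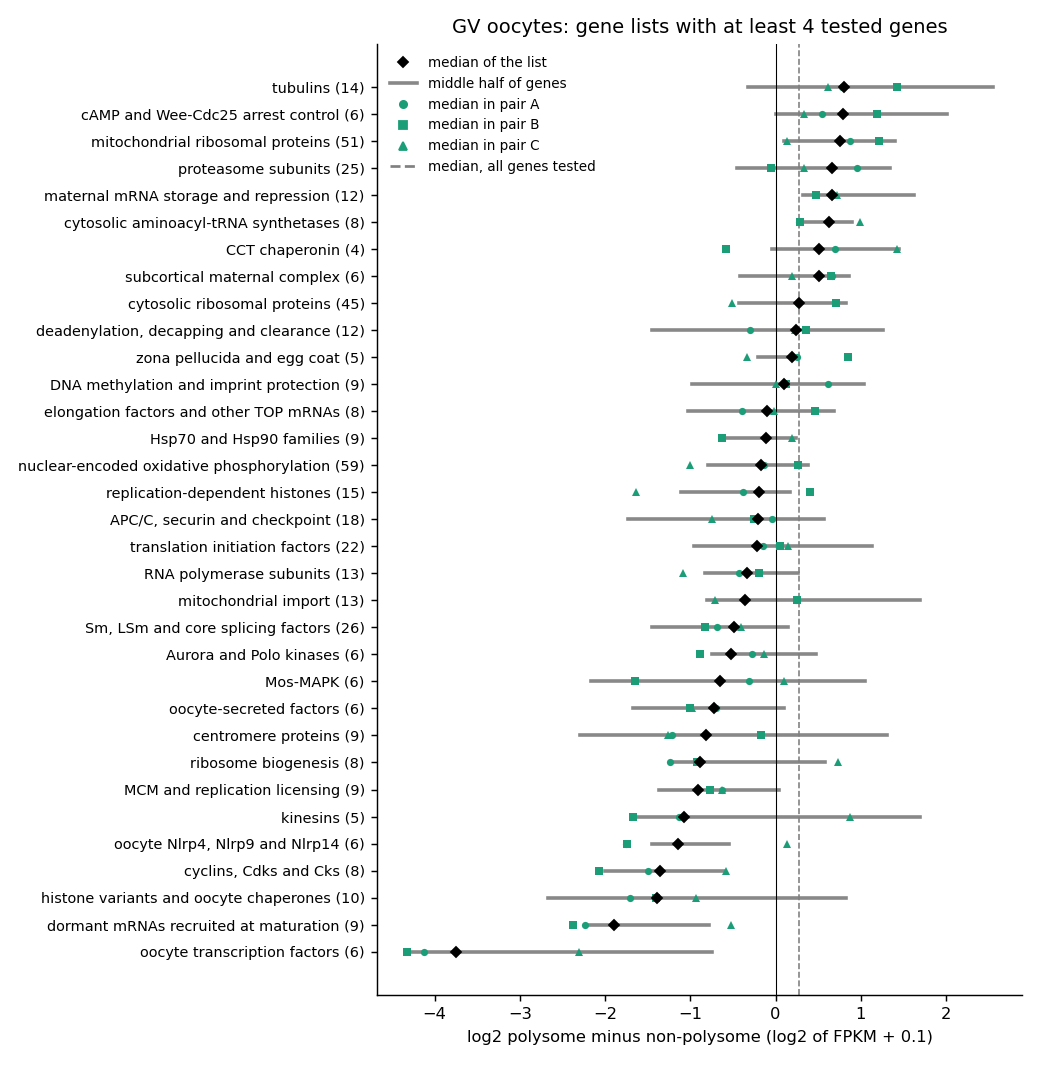
Median log2 difference of each list with at least 4 tested genes (diamond; number of tested genes in brackets), the middle range of its genes from the lower to the upper quartile (bar) and its median in each pair (green symbols), beside the median of all genes tested (dashed line, 0.27). Oocyte transcription factors, dormant mRNAs and histone variants have the lowest medians, with and without pair B, whereas the order of the lists above the median of all genes changes without pair B, where tubulins go from 0.80 to 0.65 and aminoacyl-tRNA synthetases from 0.63 to 1.21. For many lists pair C or pair B lies apart from the other pairs.

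Genes of the translation machinery were compared next. Of 45 tested cytosolic ribosomal protein genes, Rps27l alone was called lower and 0 were called higher, against 5.4% and 2.29% of all genes. Rps27l had 126, 111 and 133 FPKM in NP and 24.7, 30.6 and 14.2 FPKM in P, a difference of -2.48 (limma adjusted p = 0.038). The median of the list was 0.28, the same side as all genes, and by pair it was 0.26 in A, 0.71 in B and -0.51 in C. Without pair B it was 0.03, with 1 gene called higher and 9 lower, where 13.4% and 13.8% of all genes were called. Ribosomal protein genes have many processed copies that can take their reads. Rpl35, a protein of the large ribosomal subunit, had 13.9, 15.8 and 10.8 FPKM in NP and 41.6, 65.0 and 10.8 FPKM in P, so pair C showed no difference, and it did not pass (log2 difference 1.2, or 0.78 without pair B, limma adjusted p = 0.155 and 0.301). Of 51 mitochondrial ribosomal protein genes, Mrpl43 and Mrpl45 were called higher at 3.99 and 2.37 and 0 lower, against 2.29% of all genes called higher, with a median of 0.75. Mrpl45 did not pass with the replicate letter left out (limma adjusted p = 0.0688). Without pair B the median was 0.47, with 7 called higher where 13.4% of all genes were. Mrpl43 was low, at 0.344, 0.101 and 0.251 FPKM in NP and 4.59, 5.11 and 5.06 FPKM in P. With every NP value under 1 FPKM, Mrpl43 reached the minimum for the test only through its P values. Eif4g2, an initiation factor of cap-independent translation, was the only one called of 22 initiation factors, at -3.49. Of all genes 5.4% were called lower. Without pair B 2 initiation factors were called higher and 2 lower, where 13.4% and 13.8% of all genes were called. The elongation factor Eef2 stood at 1.80 (limma adjusted p = 0.0534, or 0.0384 without pair B and 0.0251 with the replicate letter left out).

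Genes of energy metabolism, splicing and protein turnover were set against the 5.4% of all genes that were called lower, or 13.8% without pair B. Of 59 tested nuclear-encoded genes of oxidative phosphorylation, Ndufa4 and Cox6b2 were called lower at -3.36 and -2.67, 0 were called higher, and the median was -0.17. Without pair B, 14 of the 59 were called lower and 2 higher, with a median of -0.57, against 13.8% and 13.4% of all genes in that fit. Ndufa4, a subunit linked to cytochrome c oxidase, had 107, 95.4 and 76.2 FPKM in NP and 8.07, 19.5 and 4.46 FPKM in P. Of 26 splicing genes, Snrpd3, Snrpe and Snrpf, which belong to the Sm ring of spliceosomal particles, were called lower at -3.31, -2.75 and -2.14, 0 were called higher, and the median was -0.49. Without pair B, 7 of the 26 were called lower and 0 higher, against the same shares of all genes. Of 25 proteasome subunit genes 0 were called in limma, with 6 higher and 2 lower at unadjusted p under 0.05 and a median of 0.66. Without pair B, 4 of the 25 were called higher and 2 lower, against 13.4% and 13.8% of all genes. With the replicate letter left out 0 were called higher and 2 lower, against 5.63% and 9.32% of all genes. Polr2c, an RNA polymerase II subunit, was called lower at -2.56, while Polr2i stood at 0.27 with overlapping values, and at -0.28 without pair B.

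Single calls occurred in other lists, against 2.29% of all genes called higher and 5.4% called lower. Cct5, a subunit of the CCT chaperonin that folds tubulin and actin, was called higher at 3.66 (limma adjusted p = 0.0412, and 0.0526 with the replicate letter left out), from 0.1, 0.164 and 2.38 FPKM in NP to 7.08, 2.77 and 12.8 FPKM in P. Hsp90aa1, the inducible Hsp90, was called lower at -2.23. Timm8a2 was called higher at 1.70 and Tomm34 lower at -2.91 among 13 genes of mitochondrial import. Elob and its oocyte paralogue Elobl, elongin subunits, stood at 0.71 and 0.63 and did not pass (limma adjusted p = 0.382 and 0.347). Without pair B they were at 0.22 and 0.29. Of 9 tested centromere proteins 0 were called in limma, with 3 higher and 4 lower at unadjusted p under 0.05. Without pair B 3 of the 9 were called lower and 0 higher, where 13.8% of all genes were called lower. With the replicate letter left out 3 were also called lower and 0 higher, where 9.32% of all genes were called lower. None of 6 tested Aurora and Polo kinase genes was called in limma (1 higher and 1 lower at unadjusted p under 0.05). Plk1 stood at 1.21 and was called higher with the replicate letter left out (limma adjusted p = 0.0416). None of 6 tested genes of cAMP and Wee-Cdc25 control was called in limma (2 higher and 0 lower at unadjusted p under 0.05). Gnas stood at 2.36 (limma adjusted p = 0.0529). It was called higher without pair B (limma adjusted p = 0.000126) and with the replicate letter left out (limma adjusted p = 0.0326). Gpr3, the receptor that keeps cAMP high in the arrested oocyte, stood at 0.95, or 0.44 without pair B.

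The CPE motif was then counted in the last 100 bases of the 3′ UTR of 2794 tested protein-coding genes with a gene model. It was found in 79 of 155 genes called lower, 51.0% (95% exact binomial interval 42.8 to 59.1%), in 483 of 2580 genes called neither way, 18.7% (17.2 to 20.3%), and in 7 of 59 genes called higher, 11.9% (4.91 to 22.9%). Over all 19316 gene models the share was 17.9%. The intervals treat genes as independent, which they are not, and no test was made because the search was chosen with the calls known. Along the whole range of the difference, the share was 36.0% in the lowest quintile of genes and 25.8, 17.0, 12.3 and 10.7% in the following quintiles. The median A+T content of the window fell along the same quintiles, at 67, 65, 63, 60 and 58%.

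The number of motifs went with the size of the difference. The 2225 genes without a motif had a median of 0.45, the 476 genes with 1 motif -0.41, and the 93 genes with 2 or more -1.06. This order was the same in each pair. In these classes 3.42, 11.8 and 24.7% of genes were called lower.

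**Figure D4:**
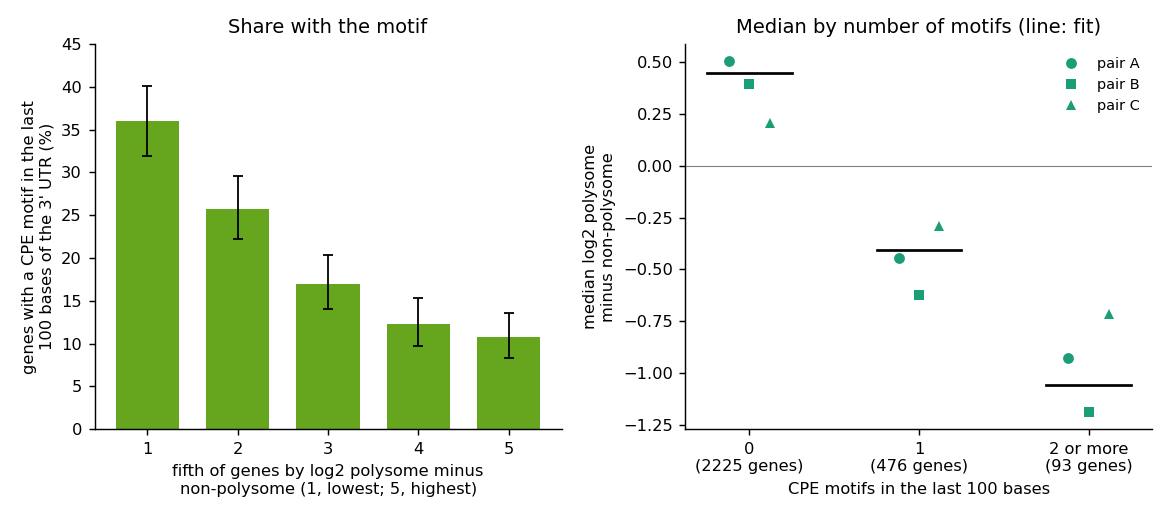
Left, percent of genes with TTTTAT or TTTTAAT in the last 100 bases of the 3′ UTR (y axis) in quintiles of the log2 difference (x axis), with 95% exact binomial intervals. The share is 36.0% in the lowest and 10.7% in the highest quintile, where the median A+T content of the window is 67 and 58%. Right, median log2 difference (y axis) of genes by number of motifs (x axis), as a line for the fit and a symbol for each pair; the order of the 3 classes is the same in every pair.

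The CPE is an A+T-rich sequence, and the 3′ ends of the genes called lower were richer in A+T, with a median of 68% against 62% for genes called neither way and 59% for those called higher. Genes were therefore also compared within quintiles of A+T content. From the lowest to the highest quintile, the motif was in 7.69, 20, 42.9, 67.4 and 66% of the genes called lower and in 3.98, 8.08, 17.9, 26.1 and 38.8% of those called neither way. Among the genes called higher, which were few, it was in 0, 0, 9.09, 20 and 66.7%, the last being 4 of 6 genes. Genes with the motif had the lower median difference in each quintile, -0.78 against -0.07 in the richest and 0.61 against 0.77 in the poorest. The part of A+T content itself in the difference was not tested.

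Other sequence features of the same window differed less between genes called lower, neither way and higher. The polyadenylation signal AATAAA or ATTAAA was in 87.1% of the genes called lower, 83.3% of those called neither way and 83.1% of those called higher. The AU-rich pentamer ATTTA was in 24.5, 21.1 and 23.7%, and the Pumilio-type motif TGTANATA in 3.23, 4.65 and 3.39%. TTTTTT was in 28.4% of genes called lower against 12.9 and 11.9%, and TATTTT, which overlaps some CPE matches, in 27.1% against 16.3 and 8.47%. TTTATT was in 22.6% against 14.0 and 11.9%. All motifs were searched on the sense strand only. Where present, the CPE match nearest to the end lay at a median of 46 bases from it in genes called lower and 44 bases in genes called neither way.

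Coding length had a weak relation to the difference. Among 3009 protein-coding genes with a model, medians by quintile from the shortest to the longest coding sequence were -0.11, 0.24, 0.50, 0.45 and 0.48. The shortest quintile, with 75 to 516 coding bases, held 55 genes called lower and 4 called higher, and the longest quintile 16 and 10. Across genes, which are not independent replicates, Spearman's rho was 0.152, or 0.234 without pair B. By pair it was 0.160 in A, 0.004 in B and 0.288 in C. The relation was thus absent from pair B. For 3′ UTR length rho was -0.013, or 0.052 without pair B, and by pair it was -0.0047 in A, -0.094 in B and 0.117 in C.

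Transcripts without a coding role were also found in both fractions. Of 476 tested processed pseudogenes 9 were called higher and 26 lower, and of 78 lincRNAs 3 and 4, shares near the 2.29% and 5.4% of all genes. Of 37 genes of the class TEC, which awaits experimental checking, 7 were called higher and 0 lower (16 higher and 2 lower at unadjusted p under 0.05 in limma), with a median of 1.16 that was 0.76 without pair B. Reads of processed pseudogenes can come from their parent genes.

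The fraction difference of GV oocytes was compared with that of MII oocytes, matured in culture for 12 h to metaphase of meiosis II, and of zygotes, in a limma fit of 18 libraries and 4149 genes with an interaction contrast. The difference was called lower in GV than in MII for 223 genes (5.37%) and higher for 373 (8.99%), and lower in GV than in zygotes for 36 (0.868%) and higher for 229 (5.52%), which makes 14.4% and 6.39% of genes in either direction. The median shift of all genes was 0.62 against MII and 0.78 against zygotes, and after each library was centred on its median the counts were 299 lower and 174 higher against MII, and 22 and 8 against zygotes. The comparison with zygotes gave 0 calls when only those 2 stages entered the limma fit, where 1082 genes had an unadjusted p under 0.05, and 1 higher and 0 lower without GV pair A, where 1136 had one. Against MII, 13 were called higher and 54 lower when only those 2 stages entered the limma fit, where 1063 genes had an unadjusted p under 0.05. In the same comparison 120 were called higher and 103 lower without GV pair A, and 956 and 338 without GV pair C, where the counts against zygotes were 1077 and 177.

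Several maturation mRNAs that were low in GV polysomes had a different fraction difference in MII oocytes. Both stage comparisons use the same GV libraries. Mos had 2709 ± 167 FPKM in NP and 599 ± 206 FPKM in P of GV oocytes (mean ± SD, 3 libraries each), and 1761 ± 479 and 1796 ± 310 FPKM in MII oocytes. The log2 difference went from -2.23 to 0.05, and the interaction was -2.28 ± 0.30 (limma adjusted p = 0.00403). Ccnb1 had 37.4 ± 9.03 FPKM in P of GV and 121 ± 12 FPKM in P of MII oocytes, with differences of -2.19 and 0.41 (interaction -2.59, limma adjusted p = 0.0138). Cdc20 had 57.1 ± 18 FPKM in NP and 5.03 ± 0.723 FPKM in P of GV oocytes, and 113 ± 11.0 and 141 ± 14.2 FPKM in MII oocytes, and the interaction was -3.77 (limma adjusted p = 0.00149).

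The same contrast was called for Mad2l1 (interaction -3.79, limma adjusted p = 0.00706), Cnot7 (-2.68, limma adjusted p = 0.0216), Orc6 (-2.21, limma adjusted p = 0.0314) and Plat (-2.03, limma adjusted p = 0.0313). Plat was not called within GV oocytes, yet its difference went from -1.57 in GV to 0.46 in MII. Pttg1 stayed lower in polysomes, with differences of -2.62 in GV and -2.29 in MII oocytes, and its interaction did not pass (-0.33, limma adjusted p = 0.564). Btg4 did not pass either (-1.23, limma adjusted p = 0.197). Ooep differed in the other direction, with 0.93 in GV and -1.24 in MII (interaction 2.16, limma adjusted p = 0.00395).

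In zygotes the picture varied by gene. Mos, at 77.4 ± 6.17 FPKM in NP and 81.9 ± 9.73 FPKM in P, and Ccnb1 had differences of 0.08 and 0.28 that did not pass (limma adjusted p = 0.858 and 0.663). Cdc20, Mad2l1 and Orc6 were again called lower in polysomes in the zygote libraries, at -4.13, -2.16 and -2.56 (limma adjusted p = 5.42e-05, 0.00908 and 0.00304). Of the 205 genes called lower in GV, 196 were in the fit, and 30 of them (15.3%) were called lower within MII and 146 (74.5%) within zygotes, against 7.5 and 14.1% of all genes. Their median was -2.66 in GV, -0.58 in MII and -1.79 in zygotes, where all genes had -0.09 in MII and -0.30 in zygotes. The GV median comes from the libraries that selected these genes, so a less extreme median in other stages would follow in part from the selection. Of the 87 genes called higher in GV, 85 were in the fit, and 13 (15.3%) were called higher within MII and 17 (20%) within zygotes, against 2.27 and 1.76% of all genes.

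Genes with a CPE motif were also followed by stage. In each GV pair the median of 497 genes with the motif was below that of 2038 genes without, by -1.15 in A, -1.16 in B and -0.57 in C. In MII the gap was -0.15, 0.16 and -0.11, and in the zygote pairs B, C and D it was -0.22, -0.33 and -0.16. The GV gaps did not overlap those of the other stages. Of 187 genes lower in GV than in MII by the interaction, 93 held the motif (49.7%), against 17.9% of genes called neither way and 9.41% of genes higher in GV.

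**Figure D5:**
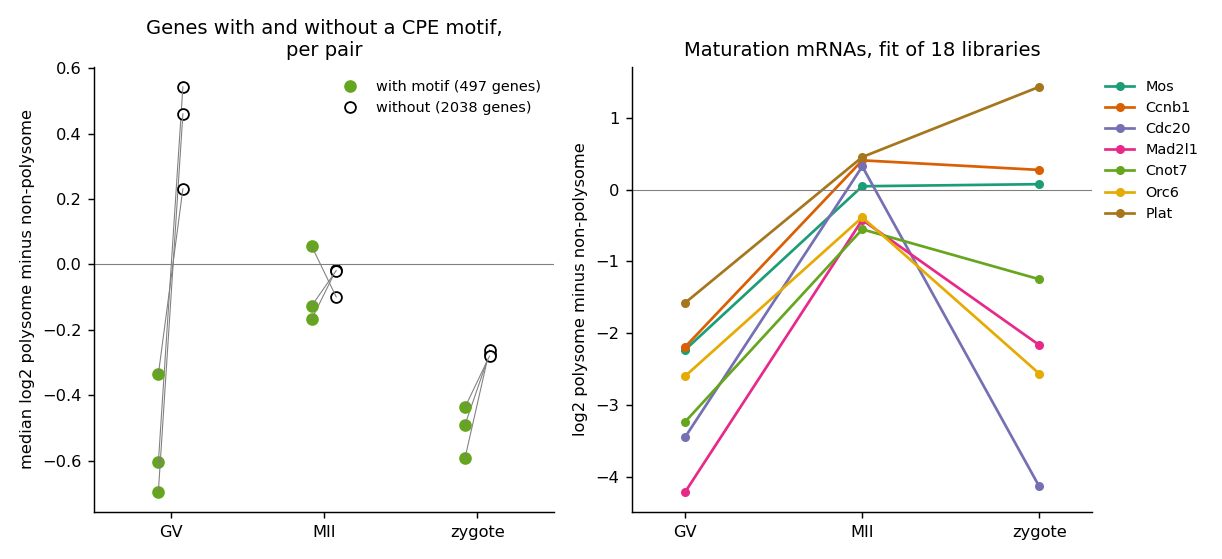
Left, median log2 difference between fractions (y axis) of genes with a CPE motif (filled) and without (open) in each pair of GV oocytes, MII oocytes and zygotes, joined per pair; the gap is -0.57 or more negative in GV and -0.33 at most in the other stages. Right, log2 difference of 7 maturation mRNAs, chosen after their values were seen, from the 18-library limma fit; Pttg1 and Btg4, at -2.29 and -0.66 in MII, are not drawn. The 7 are all below 0 in GV, between -0.55 and 0.46 in MII, and spread from -4.13 to 1.43 in zygotes.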

How the data were processed

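RNA of polysome and non-polysome pools was extracted with Trizol and made into libraries with Smart-seq V4, which primes on poly(A) tails and does not mark the strand, and Nextera XT. The submitters' processing notes name Trim Galore 0.4.1, STAR 2.5.3a, GRCm38 and Partek. The authors deposited FPKM values, normalised by them, for 23125 genes, with 0.01 as the lowest value. Of the 38 samples, 36 have a column.

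Low FPKM values were within 0.1 of whole fragments for 42.7 to 49.8% of values, so no count test was made. The depths are estimates from single-transcript genes, and no counting error is given. Log2(FPKM + 0.1) of 3799 genes was fitted with limma 3.58.1 (R 4.3.3) with a trended prior and the replicate letter as a block. Libraries with the same letter were taken to be the pools of 1 gradient, which the labels do not state. Tests are two-sided. The 3 stages were fitted over 18 libraries with stage and letter together as a block. Deviations of libraries with the same letter correlated at 0.134 (A), 0.018 (B) and 0.041 (C). The fit was tested on simulated data, and the outcome is not given here.

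The 41 gene lists and the members were chosen with earlier results of these data known. Named genes are the 12 called protein-coding genes with the largest difference each way at a mean of at least 10 FPKM and the same direction in every pair, genes the study names, the 4 highest and 4 most changed members of each list, all members of lists of at most 18 symbols, and the 6 largest stage differences each way against each of MII and zygote. Gene models, 3′ UTRs and coding lengths, used in place of protein lengths, are from GENCODE M21 (GRCm38), where 22146 symbols matched and 20749 matched in position. The CPE search was added after the results were known. Python 3.11.15 with pandas 2.3.3, numpy 2.4.6, scipy 1.17.1 and matplotlib 3.10.9 were used. The alternatives tried were other pseudocounts, minimum levels, scalings, models and left-out replicates.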

Additional observations from a re-analysis of the deposited data

Results flagged for a closer look

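The fraction difference itself differed between stages in the interaction test of the 18-library limma fit, which called 373 genes higher in GV than in MII oocytes and 223 lower, and against zygotes 229 higher in GV and 36 lower. The genes with the largest such differences in each direction are given here as values, and both comparisons use the same GV libraries.

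Lower in GV than in MII were Obox5 (-4.23), Fam90a1a (-4.12), Magoh (-4.10), D6Ertd527e (-3.98), Naa40 (-3.92) and Gm4981 (-3.85), in log2 units of the interaction. Obox5 differed by -4.97 in GV and -0.75 in MII (limma adjusted p of the interaction = 0.000988), and Magoh by -4.73 and -0.63 (limma adjusted p = 0.0103). Fam90a1a and Gm4981 had the opposite sign in MII, at 1.39 and 1.64.

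Higher in GV than in MII were B4gat1 (4.85), Lage3 (4.32), Pigc (4.25), Mtfr1l (4.0), Irf1 (3.67) and Zkscan14 (3.21). In NP B, B4gat1, Lage3 and Pigc were at the lowest value of 0.01 FPKM, Irf1 at 0.0152 FPKM and Zkscan14 at 0.0163 FPKM. Without pair B the log2 difference in GV went from 4.88 to 4.20 for B4gat1, from 3.63 to 1.86 for Lage3, from 3.41 to 1.64 for Pigc, from 4.29 to 3.08 for Irf1 and from 3.60 to 2.37 for Zkscan14. B4gat1 was also low in NP A, at 0.0272 FPKM, and differed by 7.26 in pair A and 1.13 in pair C. Within GV alone, only Irf1 of these was called (log2 difference 4.29, limma adjusted p = 0.047), and Mtfr1l was under the minimum level for that test.

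Lower in GV than in zygotes were Gm4353 (-3.01), Plat (-3.01), Obox7 (-2.86), Mfsd10 (-2.73), Obox2 (-2.67) and Ccnb1 (-2.46). Higher in GV than in zygotes were Chpf (3.74), 2310011J03Rik (3.72), Ankrd54 (3.58), Irf1 (3.45), Mtfr1l (3.40) and Osgin1 (3.23). Chpf was called in the interaction although its values in GV overlapped, with 0.706, 14.2 and 0.176 FPKM in NP and 13.5, 23.8 and 5.55 FPKM in P. Osgin1 was at 0.0208 FPKM and 2310011J03Rik at 0.0672 FPKM in NP B. Without pair B the log2 difference in GV went from 3.96 to 3.44 for Osgin1 and from 2.85 to 1.85 for 2310011J03Rik. For Chpf it rose from 3.06 to 4.22. Ankrd54 and Mtfr1l were not tested within GV alone.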

How the results depend on the processing

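No named gene that was called changed direction under any alternative run, but this was largely fixed beforehand. Every called gene had the same direction in all pairs, so leaving out a pair could not reverse it. Runs that changed only the replicate block, the prior or the minimum level left the difference itself unchanged. The 63 named called genes gave 686 results on the same side of the threshold and 302 that no longer passed. The number of calls depended on the model. For genes higher and lower in GV polysomes, 87 and 205, no replicate block gave 214 and 354, adding nothing to the FPKM 0 and 5 (1153 at unadjusted p under 0.05 in limma), adding 1 FPKM 320 and 375, a minimum of 0.1 FPKM 11 and 48, no minimum 0 and 0 (2283 at unadjusted p under 0.05), a minimum of 10 FPKM 186 higher, quantile normalisation 270 and 371, a fit of 24 libraries 428 and 434, and a limma prior without trend 0 and 0 (1216 at unadjusted p under 0.05). Leaving out 1 pair gave 87 to 509 higher and 85 to 525 lower, with the lowest without pair A and the highest without pair B, and leaving out NP B alone, chosen after the data were seen, gave 179 higher and 305 lower. Libraries with the same letter were taken to pair the pools of 1 gradient, which the labels do not state. Their deviations correlated above 0.1 in pair A alone, at 0.134 against 0.018 in B and 0.041 in C.

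Against MII, higher counts were 219 with a minimum of 0.1 FPKM, 174 after median centring, 13 with 2 stages in the fit, and 120 to 956 with a GV pair left out. Lower counts were 54 with 2 stages and 103 to 338 with a GV pair left out. Against zygotes, higher and lower counts were 372 and 79 with no replicate block, 359 and 70 with 1 FPKM added, 2 and 1 with a minimum of 0.1 FPKM (1964 at unadjusted p under 0.05 in limma), 121 and 109 with quantile normalisation, 8 and 22 after median centring, and 0 and 0 with 2 stages (1082 at unadjusted p under 0.05). With a GV pair left out they were 1 to 1077 and 0 to 177, where the lowest counts are without pair A and the highest without pair C. The cause was not tested.

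The share of genes called lower that held a CPE motif, 51.0%, was 29.7% for the last 50 bases, 59.1% for the last 200, 37.6% with calls made without replicate B (10.9, 27.8 and 18.5% of genes called neither way) and 66.7% in the 2 quintiles richest in A+T, all chosen after the data were seen. Under the alternatives, list medians moved by more than their spread over pairs in 37 cases and by less in 550. Depth is known by estimate only, and genes under 1 FPKM were not tested.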

Other observations

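Genes outside the naming rule, chosen after their values were seen, showed differences within gene families. All 6 tested Tcl1 genes, a cluster of oocyte-expressed AKT coactivators, were called lower in polysomes, against 5.4% of all genes. Their log2 differences ran from -3.83 for Tcl1b1 to -3.02 for Tcl1. Tcl1 was the most abundant, with 2714, 1966 and 2858 FPKM in NP and 269, 405 and 264 FPKM in P. These genes are close copies, so reads may be shared among them.

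The oocyte Oas1 genes, a multigene family of oligoadenylate synthetases, differed in opposite directions. Oas1d had 754, 839 and 386 FPKM in NP and 65.8, 74.3 and 78.7 FPKM in P, a log2 difference of -3.10 (limma adjusted p = 0.0297), whereas Oas1c was called higher at 2.67 and Oas1h at 1.71 (limma adjusted p = 0.038 and 0.04). Oas1e stood at 0.68 with overlapping values. Each of the called genes had P and NP values apart in all 3 pairs, and these too can share reads.

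The most abundant gene called lower was Bcl2l10, an anti-apoptotic Bcl-2 relative of the oocyte, with 3986, 4029 and 4247 FPKM in NP and 537, 789 and 597 FPKM in P, a log2 difference of -2.69 (limma adjusted p = 0.0366). Its NP values were nearly equal. Actb and Gapdh, often used as references, were both called higher in polysomes, at 2.52 and 1.90 (limma adjusted p = 0.0311 and 0.04). Actb had 109, 60.9 and 167 FPKM in NP and 603, 491 and 712 FPKM in P.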
